A study of Mus musculus with 4 samples.

Results

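The SR splicing factor family is represented here by 10 genes, Srsf1, Srsf2, Srsf3, Srsf4, Srsf5, Srsf6, Srsf7, Srsf9, Srsf10 and Srsf11, taken as the rows of the count table whose symbol equals 1 of these names. They are 10 of 27115 genes in the table, and all 10 passed the filter on low counts that left 16801 genes for testing. RNA was sequenced in bulk from mouse 2-cell embryos on day 2 of in vitro culture. There were 2 libraries of embryos overexpressing Trim75 (Trim75 OE), a gene of the tripartite motif family, and 2 libraries of wild-type control embryos. The sources used here do not give the strain, how Trim75 was overexpressed, or how many embryos went into a library. The titles of the control libraries carry the tag L2C, which those of the Trim75 OE libraries lack, and the library numbers of the groups run separately, so handling and group cannot be told apart. Nothing in the labels says that libraries of a group came from separate embryo pools, so every p-value rests on library-to-library spread that could be technical.

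SR proteins bind RNA through RNA recognition motifs and contact other proteins through a domain rich in arginine and serine. They sit on exonic enhancers and help the U1 and U2 snRNPs find the neighbouring splice sites, and several of them also carry finished mRNA to the cytoplasm. Kinases of the SRPK and CLK families phosphorylate the arginine-serine domain, and a transportin brings the phosphorylated proteins into the nucleus. Many SR genes limit their own level through alternative exons that send the transcript to nonsense-mediated decay. In mouse embryos, loss of Srsf3 stops development before the blastocyst forms.

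Depth was 13349188 and 11124411 reads in the Trim75 OE libraries, against 9965081 and 14599670 in the controls. Trim75 had 12091 and 10537 reads in the Trim75 OE libraries, against 1773 and 1703 in the controls. Its log2 fold change was 2.73 ± 0.28 (SE, edgeR adjusted p = 0.321; DESeq2 adjusted p = 5.17e-14), so the libraries match their labels. Of 16801 genes, 0 passed an adjusted p of 0.05 in edgeR's quasi-likelihood test, 1888 (11.2%; 3.53% lower and 7.71% higher in Trim75 OE) had an unadjusted p under 0.05, and 885 genes (5.51% of 16075 with an adjusted p; 1.73% lower) passed in DESeq2. All 10 markers of the early embryo, such as Zscan4d, Obox5 and Btg4, were detected, with summed levels of 9930 and 13100 CPM (read counts scaled to library size) in Trim75 OE libraries, against 9380 and 10900 CPM in controls. Of 8 cumulus and granulosa markers, 6 had values, with sums of at most 0.965 CPM in any library, and Foxl2 was at 0 in 3 of the 4 libraries. Sperm markers were represented by Prm2 alone, at 5.86 and 3.66 CPM in Trim75 OE libraries, against 20 and 0 CPM in controls. Summed blood markers were 19.8 and 11.7 CPM in Trim75 OE libraries, against 20.1 and 23.4 CPM in controls. Summed blastocyst markers were 99.2 and 80.8 CPM in Trim75 OE libraries, against 105 and 112 CPM in controls. Of these, Gata4 had the most reads, 917 and 700 in Trim75 OE libraries, against 765 and 1380 in controls. Gata6 reached 146 reads, Krt18 280 and Krt8 49, and Cdx2, Sox17 and Nanog had at most 10 in any library. Since these are bulk libraries, fewer cells of a type and less RNA per cell cannot be told apart.

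Most of the family sat lower in Trim75 OE embryos, but no single gene passed the adjusted threshold. The log2 fold change was below 0 for 9 of 10 genes, where 48.7% of all genes tested were below 0. Srsf9 alone was above 0, and Srsf3 was at -0.01. With upper-quartile scaling 8 were below 0, since Srsf3 changed sign. Only 7 were below 0 without control replicate 2, and 7 without Trim75 OE replicate 2. The median over the 10 genes was -0.49 (quartiles -0.68 and -0.32), beside 0.03 (quartiles -0.64 and 0.77) over all 16801 genes. Without control replicate 2 the family median was -0.19, beside 0.21 over the 19838 genes then tested. Without Trim75 OE replicate 2 it was -0.22, beside -0.05 over 19395 genes. The filter on low counts was run anew with each library left out, so such all-gene medians cover more genes than the 16801. A gap to them cannot be compared with the gap over all 4 libraries. In 3 genes (Srsf1, Srsf7 and Srsf11) both Trim75 OE libraries lay below both controls, which held for 19.6% of all genes, and in Srsf9 both lay above, which held for 24% of all genes. Among the 7485 genes averaging 20 CPM or more, a level that all members but Srsf4 reached, the groups were apart in the lower direction for 24.3% and in the higher direction for 22.5%, and 51.2% had a log2 fold change below 0. edgeR called 0 of 10 members at adjusted p 0.05 and DESeq2 called 0 of 10. Without adjustment, edgeR's p was under 0.05 for Srsf7 only, beside 3.53% of all genes under it and lower.

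The summed RNA of the family followed the same order, but a sum weighs most the genes with the most reads. In mean CPM the largest differences were those of Srsf1 (337.5 in Trim75 OE, 542.1 in controls), Srsf7 (158.2, 296.7) and Srsf11 (123.2, 196.8). These are the genes already counted as apart and lower, so the sum is not separate evidence about the family. Srsf9 alone had the higher mean in Trim75 OE embryos. The summed level of the 10 genes was 1225 and 1050 CPM in the Trim75 OE libraries, against 1369 and 1991 CPM in the controls. The highest value was in control replicate 2, and the groups did not overlap. The means were 1138 ± 124 CPM in Trim75 OE embryos and 1680 ± 440.1 CPM in controls (SD, n = 2 each), a log2 ratio of -0.56. Without control replicate 2 that ratio was -0.27, so this library carried much of the difference. Control replicate 2 was above control replicate 1 in 8 of 10 members, where 51.9% of the genes at 20 CPM or more were. Trim75 OE replicate 2 was above replicate 1 in 2 of 10 members, where 49.2% of those genes were.

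Among the SR proteins that travel between nucleus and cytoplasm, Srsf7 had the clearest difference, and Srsf1 was apart by a narrower margin. Srsf7, whose protein carries a zinc knuckle beside its RNA recognition motif and can pass mRNA to the export receptor, had 170 and 146.3 CPM in Trim75 OE libraries, against 244.8 and 348.6 CPM in controls. Both Trim75 OE values lay well under the lower control. The log2 fold change was -0.91 (95% interval -1.67 to -0.15, edgeR adjusted p = 0.365; DESeq2 adjusted p = 0.132), and this was the only interval of the 10 that did not include 0. Srsf7 (ENSMUSG00000024097) lies on the minus strand at chr17:80200080-80207307 in GRCm38, the assembly also called mm10. Srsf1, the founding member, which favours nearby splice donor sites, had 306.1 and 369 CPM in Trim75 OE libraries, against 403.5 and 680.8 CPM in controls. The groups were apart, with the gap between the controls wider than the gap between the groups. Its log2 fold change was -0.68 (95% interval -1.58 to 0.21, edgeR adjusted p = 0.581), and -0.26 without control replicate 2.

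Srsf3, the member with the shortest coding sequence (495 bases) and an adaptor for mRNA export, had 48.7 and 34.7 CPM in Trim75 OE libraries, against 24.3 and 59.7 CPM in controls. The Trim75 OE values lay between the controls, and the log2 fold change of -0.01 had an interval from -1.68 to 1.65 (edgeR adjusted p = 0.999). Its sign turned with the choice of scaling: it was 0.01 with upper-quartile factors. Srsf10, known as a splicing repressor when it loses its phosphates, had 146.6 and 124 CPM in Trim75 OE libraries, against 110.9 and 227.9 CPM in controls. Control replicate 1 lay below both Trim75 OE libraries and control replicate 2 above them, and the log2 fold change was -0.32 (95% interval -1.47 to 0.82, edgeR adjusted p = 0.916).

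Srsf2, which binds exonic enhancers through a single RNA recognition motif, had 170.1 and 121.1 CPM in Trim75 OE libraries, against 158.2 and 203.8 CPM in controls. The groups overlapped, with a log2 fold change of -0.31 (95% interval -1.14 to 0.51, edgeR adjusted p = 0.862). Srsf11, studied for its part in the inclusion of neuronal microexons, had 126.9 and 119.4 CPM in Trim75 OE libraries, against 165.5 and 228.2 CPM in controls. Both Trim75 OE values were lower than both controls, and the log2 fold change was -0.68 ± 0.28 (SE, 95% interval -1.43 to 0.08, edgeR adjusted p = 0.505).

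Srsf4, Srsf5 and Srsf6, each with a pair of RNA recognition motifs and a long arginine-serine domain in Srsf4 and Srsf6, varied as much within groups as between them. Srsf5 had 85.5 and 68.1 CPM in Trim75 OE libraries, against 81.0 and 118.6 CPM in controls, with a log2 fold change of -0.38 (edgeR adjusted p = 0.854). Srsf6 had 1686 and 262 reads in Trim75 OE libraries, against 1466 and 1315 in controls. Trim75 OE replicate 2 was the low library, and replicate 1 lay between the controls in CPM. The log2 fold change of Srsf6 was -0.60 (95% interval -2.87 to 1.67, edgeR adjusted p = 0.926), and without Trim75 OE replicate 2 it was 0.15. Srsf4 had few reads, with 22 and 61 reads in Trim75 OE libraries, against 151 and 33 in controls. A single library, control replicate 1, was high, and the log2 fold change of -1.18 had an interval from -5.05 to 2.68 (edgeR adjusted p = 0.906). Without control replicate 1 the log2 fold change of Srsf4 was 0.70.

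Srsf9, whose protein has a short arginine-serine domain, was the one member above 0. It had 41.2 and 37.3 CPM in Trim75 OE libraries, against 24.3 and 30.8 CPM in controls. The lower Trim75 OE library stood above the higher control, with a log2 fold change of 0.51 (95% interval -0.78 to 1.80, edgeR adjusted p = 0.854; DESeq2 adjusted p = 0.805). Srsf9 (ENSMUSG00000029538) lies on the plus strand at chr5:115327177-115333080.

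**Figure D1:**
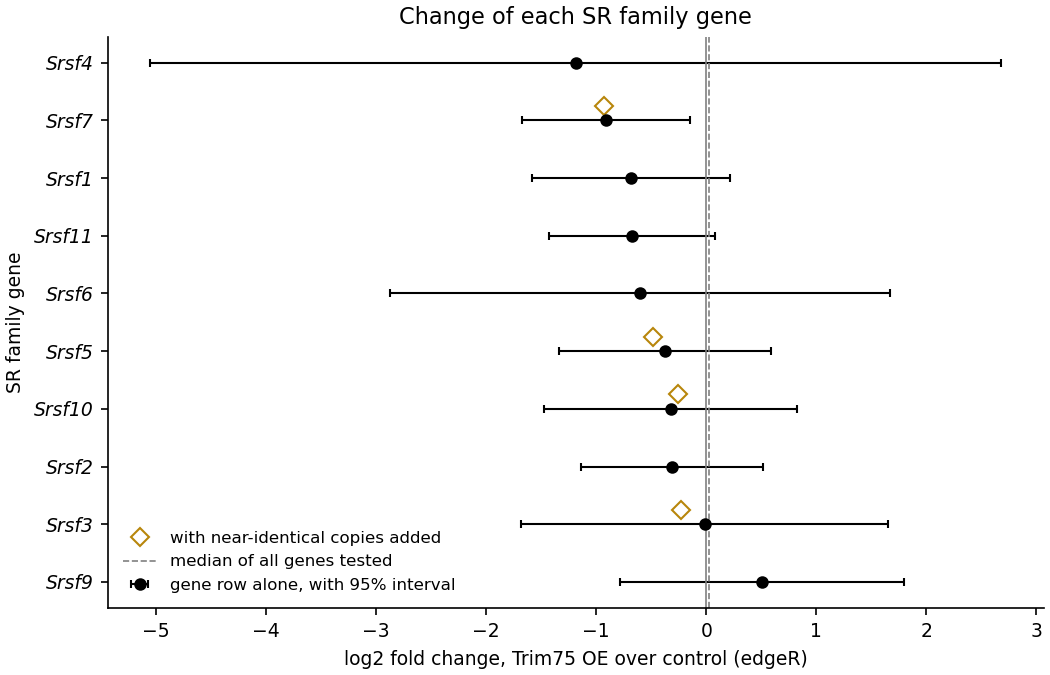
Log2 fold change of each SR family gene, Trim75 OE over control, from edgeR (black points with 95% intervals), and after adding reads of near-identical gene copies (diamonds, 4 genes). The interval lies wholly below 0 for Srsf7 alone, and the dashed line marks the median of all genes tested at 0.03.

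Of these genes, 4 have copies elsewhere in the genome that could share their reads, since the handling of reads with several matches is not given in the sources used here. The counts of Srsf3, Srsf5, Srsf7 and Srsf10 are therefore uncertain. The closest copy with reads of its own beside Srsf3 is Gm9761, 99.6% identical over 492 aligned bases, and the longest is Srsf3-ps, 98.3% identical over 1298 bases. For Srsf5 it is Gm12966, 99.0% identical over 810 bases, the whole coding sequence of Srsf5. The 150-base windows printed here come from the GRCm38 transcripts, 5′ to 3′, and show how little separates gene and copy; capitals mark each base that differs within a pair. The first pair starts at base 207 of the Srsf3 coding sequence (chromosome 17) and base 204 of Srsf3-ps (chromosome 11), and the second at base 513 in both Srsf5 (chromosome 12) and Gm12966 (chromosome 4).
Srsf3: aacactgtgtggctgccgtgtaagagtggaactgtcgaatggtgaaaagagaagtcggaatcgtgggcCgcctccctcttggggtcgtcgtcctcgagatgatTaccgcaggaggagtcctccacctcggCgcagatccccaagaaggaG
Srsf3-ps: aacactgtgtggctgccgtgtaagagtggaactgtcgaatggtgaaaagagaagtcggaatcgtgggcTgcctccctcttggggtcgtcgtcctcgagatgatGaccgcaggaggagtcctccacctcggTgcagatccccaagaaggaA
Srsf5: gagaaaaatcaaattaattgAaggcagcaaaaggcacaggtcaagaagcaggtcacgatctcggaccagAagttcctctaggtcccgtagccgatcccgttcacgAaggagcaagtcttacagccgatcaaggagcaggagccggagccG
Gm12966: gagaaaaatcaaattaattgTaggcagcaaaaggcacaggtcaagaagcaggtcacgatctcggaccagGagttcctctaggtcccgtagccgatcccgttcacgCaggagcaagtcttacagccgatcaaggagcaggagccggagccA
Each pair differs at 4 of 150 bases in its window. Over the whole coding sequence, Srsf5 and Gm12966 differ at 8 of 810 positions, and Srsf3 and Srsf3-ps at 9 of 495, of which 3 are gaps. A read shorter than the space between such bases cannot be assigned to either from its sequence.

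The copies had sizeable counts of their own. Gm12966 had 441 and 316 reads in Trim75 OE libraries, against 332 and 1045 in controls. Srsf3-ps had 109 and 54 reads in Trim75 OE libraries, against 86 and 238 in controls. In CPM it was apart and lower by a very narrow gap (8.289 and 5.074, against 8.298 and 16.32), while Srsf3 was not apart. Gm9761 had 253 and 132 reads in Trim75 OE libraries, against 112 and 445 in controls. Gm5446 and Gm9134, which resemble Srsf10, ranged from 261 to 917 reads over the 4 libraries. Gm18821, 92.4% identical to Srsf7 over 713 bases, had 251 and 197 reads in Trim75 OE libraries, against 311 and 758 in controls. Its groups were apart in the same direction as those of Srsf7, which held for 19.6% of all genes. The remaining 3 copies of Srsf3 (Gm11922, Gm7083 and Gm20147) had at most 4 reads in a library. Adding the copies to their genes, a choice made after the data were seen, moved the log2 fold change to -0.93 for Srsf7, -0.48 for Srsf5, -0.26 for Srsf10 and -0.23 for Srsf3. The median over the family was then -0.54, and no member passed (lowest edgeR adjusted p = 0.362).

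Overlapping genes touch other members. The strand setting of the counting is not given in the sources used here, so reads of genes on opposite strands cannot be told apart. The exons of Srsf4 share 1532 bases, 43.0% of their length, with Gm12992 on the opposite strand, which had 99 and 72 reads in Trim75 OE libraries, against 110 and 212 in controls. Srsf2 shares 460 bases (15.6%) with Mettl23 and 288 bases (9.74%) with Mfsd11, both on the opposite strand, and Srsf1 shares 98 bases (1.72%) with Gm11508.

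Levels per length, taken from the authors' FPKM (reads scaled to gene length and library total), put 3 members at the top in every library. In Trim75 OE embryos, Srsf1 had a level of 57.3 ± 6.38 FPKM, Srsf2 47.9 ± 12.4 FPKM and Srsf7 43.3 ± 5.49 FPKM (SD, n = 2). In controls, Srsf1 had 96.3 ± 32.25 FPKM, Srsf7 84.9 ± 18.7 FPKM and Srsf2 62.2 ± 9.34 FPKM (SD, n = 2). In Trim75 OE embryos the values of Srsf2 overlapped those of both others, and in controls Srsf1 and Srsf7 overlapped while Srsf2 lay below both.

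The middle of the order held 5 genes with similar levels. In Trim75 OE embryos Srsf9 came next at 23.1 ± 2.10 FPKM, followed by Srsf10 at 18.8 ± 2.60, Srsf5 at 18.7 ± 3.39, Srsf6 at 15.6 ± 15.1 and Srsf11 at 14.2 ± 0.90 FPKM (SD, n = 2). In controls Srsf5 came next at 25.4 ± 6.06 FPKM, followed by Srsf6 at 24.65 ± 8.385, Srsf10 at 24.5 ± 11.35, Srsf11 at 23.7 ± 4.68 and Srsf9 at 16.97 ± 2.37 FPKM (SD, n = 2). Neighbours in this middle range overlapped in most cases. By these values Srsf9 had rank 5 and rank 4 in the Trim75 OE libraries, against rank 8 in both controls. Srsf3 had 5.13 ± 1.32 FPKM in Trim75 OE embryos and 5.38 ± 3.08 FPKM in controls, and Srsf4 had 1.00 ± 0.76 FPKM in Trim75 OE embryos and 2.445 ± 2.56 FPKM in controls (SD, n = 2 each).

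**Figure D2:**
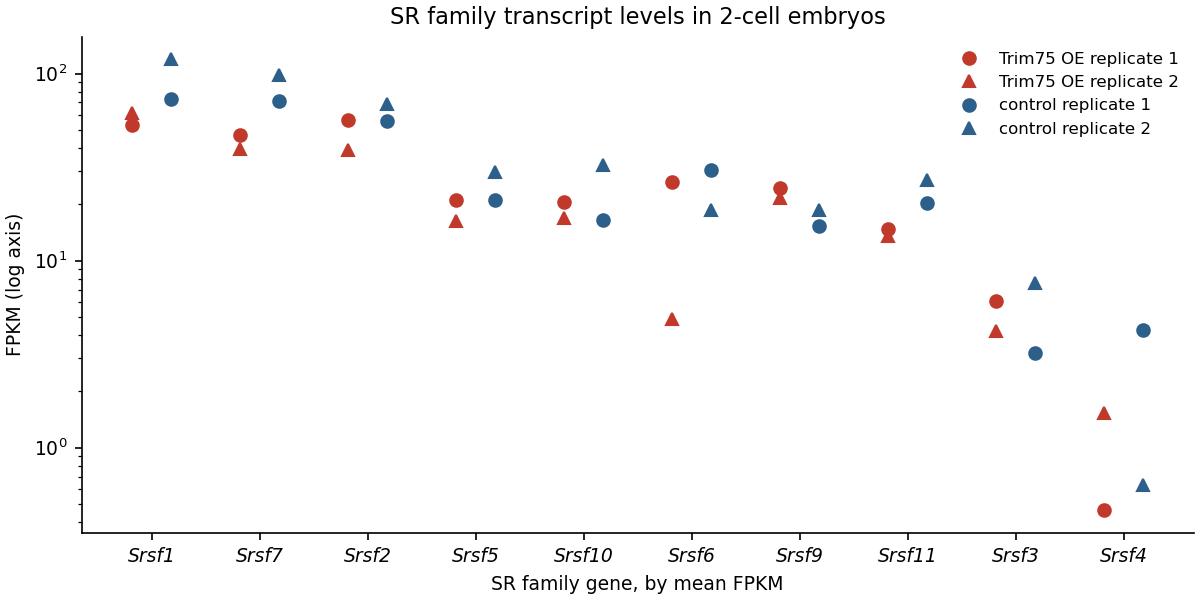
Level of each SR family gene in each library, in FPKM on a log axis, ordered by the mean over the 4 libraries, with Trim75 OE libraries to the left of controls. Srsf1, Srsf7 and Srsf2 stand above the other 7 genes in every library, and Srsf6 in Trim75 OE replicate 2 stands at 4.90 FPKM, against 26.3 FPKM in replicate 1.

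These levels depend on the length used. The authors' FPKM values divide by the union of all annotated exons, retained introns included, which for Srsf3 is 7899 bases against 2618 bases in its principal transcript. Dividing by the principal transcript instead, a choice made after the data were seen, gave mean levels over the 4 libraries of 99.5 for Srsf7, 85.8 for Srsf2 and 81.8 for Srsf1, so that Srsf1 came after the other two. Srsf3 had 15.9 on that scale, against 5.26 FPKM by exon union, and had rank 9 on both scales. Srsf9 had 32.8 in Trim75 OE embryos and 24.1 in controls on that scale, rank 7 and rank 8 by group mean, so its higher rank in Trim75 OE embryos shrank to 1 place. Of the 10 genes, 9 have at least 1 transcript annotated for nonsense-mediated decay in GENCODE (15 transcripts in all, none for Srsf10) and 8 have retained-intron transcripts (26 in all). The gene counts do not separate these transcripts from those that code for protein (29 of 85).

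The makeup of the family was compared through the share of each gene, which does not depend on how libraries are scaled. By FPKM over all 4 libraries, Srsf7 and Srsf9 had the largest differences in share. Srsf9 made up 9.08% and 9.84% of the summed FPKM of the 10 genes in Trim75 OE libraries, against 4.90% and 4.43% in controls. Srsf7 made up 17.4% and 18% in Trim75 OE libraries, against 23.0% and 23.3% in controls. In both genes the libraries of a group lay within 1 percentage point of each other and the groups were far apart. The means for Srsf9 were 9.46% ± 0.54 in Trim75 OE embryos and 4.67% ± 0.33 in controls (SD, n = 2 each), a difference of 4.79 percentage points. The means for Srsf7 were 17.7% ± 0.37 in Trim75 OE embryos and 23.1% ± 0.24 in controls (SD, n = 2 each), a difference of -5.44 percentage points. By raw counts these differences were 1.79 percentage points for Srsf9 and -3.79 for Srsf7, since long genes then weigh more, and Srsf10 (2.11) and Srsf2 (1.81) then exceeded Srsf9. Without Trim75 OE replicate 2, the FPKM share of Srsf1 differed most, by -6.41 percentage points, against -5.70 for Srsf7 and 4.41 for Srsf9.

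Smaller shifts accompanied these. The shares of Srsf2, Srsf3 and Srsf5 were apart and higher in Trim75 OE embryos by 2.30, 0.67 and 0.71 percentage points, and that of Srsf11 was apart and lower, with a difference of -0.65. The gap for Srsf2 was below the printed digits, with 17.8% in both Trim75 OE replicate 2 and control replicate 1. Shares of Srsf1, Srsf4, Srsf6 and Srsf10 overlapped between the groups. By CPM, 19.6% of all genes tested were apart and lower and 24% apart and higher, so groups that do not overlap are common. Shares of 1 whole are tied to each other, so ratios of gene pairs were also taken, a comparison chosen after values were seen. Of 45 pairs, 19 (42.2%) had ratios that did not overlap between the groups, where 45.3% of all pairs of genes at 20 CPM or more did so, so this count does not set the family apart. Of the 19 pairs, 6 involve Srsf7 and 6 involve Srsf9, each out of 9. Srsf11 is in as many, with Srsf2, Srsf3, Srsf5, Srsf7, Srsf9 and Srsf10, so Srsf7 and Srsf9 do not stand out by this count. The level of Srsf7 per length was 1.92 and 1.83 times that of Srsf9 in Trim75 OE libraries, against 4.69 and 5.26 times in controls. The log2 difference was -1.41 with a pooled SD of 0.09. This pair joins the genes with the largest share differences, so its ratio is not separate evidence. Srsf6 over Srsf9 differed more, by -1.52, with a pooled SD of 1.22 and overlapping groups. With 2 libraries a group, the smallest p an exact two-sided permutation test can give is 0.333, so this test cannot pass for a single ratio.

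**Figure D3:**
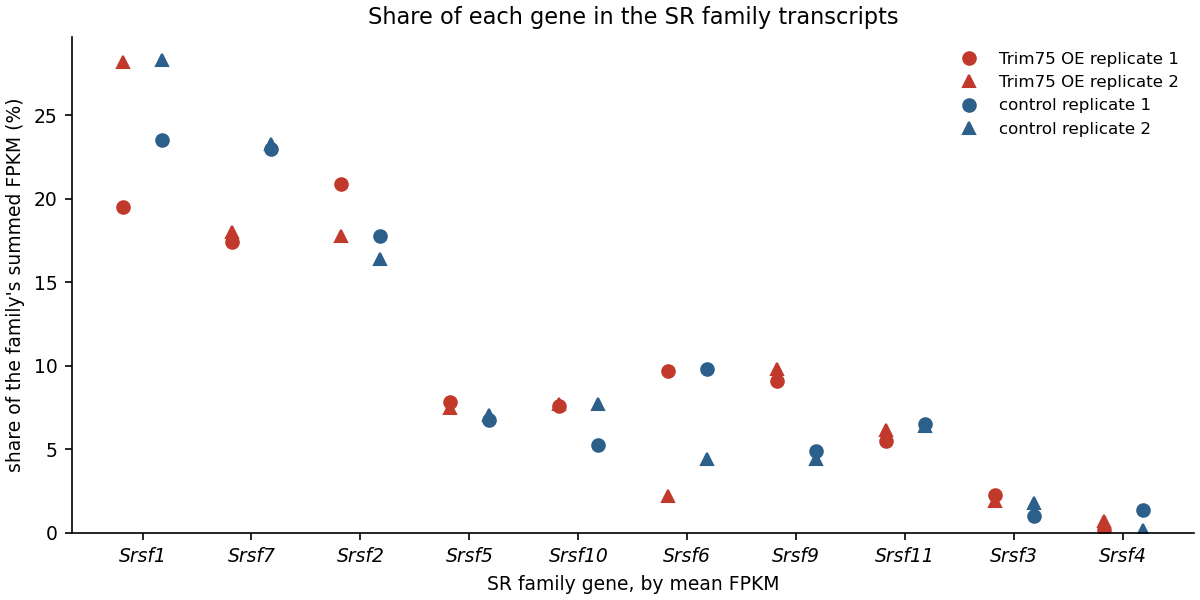
Share of each SR family gene in the summed FPKM of the 10 genes, in percent, for Trim75 OE and control libraries. Srsf9 stands at 9.08% and 9.84% in Trim75 OE libraries, against 4.90% and 4.43% in controls, and Srsf7 at 17.4% and 18% in Trim75 OE libraries, against 23.0% and 23.3% in controls.

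The 250 bases before the RefSeq start are shown for Srsf7, the member with the lowest edgeR p, and Srsf9, the one member above 0 (GRCm38.p6, 5′ to 3′ on each gene's strand). The Srsf7 window is chr17:80207306-80207555 on the minus strand, and the Srsf9 window is chr5:115326927-115327176 on the plus strand. Capitals mark exact matches only, with close variants left unmarked, to the 6 motifs searched on both strands. These were the GC box GGGCGG, the box named CCAAT, the TATA box as TATAAA, the cAMP response element TGACGTCA, the ETS-type sequence CCGGAAGT and the palindrome of the factor NRF1.
Srsf7: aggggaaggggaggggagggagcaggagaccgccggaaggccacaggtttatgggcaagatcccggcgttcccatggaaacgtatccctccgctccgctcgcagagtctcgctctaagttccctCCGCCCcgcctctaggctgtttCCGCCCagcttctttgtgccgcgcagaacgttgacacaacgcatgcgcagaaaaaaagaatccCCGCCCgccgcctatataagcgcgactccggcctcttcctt
Srsf9: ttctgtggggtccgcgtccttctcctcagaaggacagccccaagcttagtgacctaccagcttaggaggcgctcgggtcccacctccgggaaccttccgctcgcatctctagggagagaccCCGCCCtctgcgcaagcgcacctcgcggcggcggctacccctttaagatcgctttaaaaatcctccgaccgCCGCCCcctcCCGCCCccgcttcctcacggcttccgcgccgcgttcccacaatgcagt
Every capital run in both windows is CCGCCC, the reverse complement of GGGCGG, the letters that Sp-family factors prefer, and each window holds 3 of them. GGGCGG was present in 9 of the 10 windows of the family, where 32.7% of 32851 RefSeq promoters of the same length hold it. CCAAT was present in 3 of 10 windows (33.8% of all promoters), TATAAA in 2 (12.4%) and CCGGAAGT in 2 (2.88%), while TGACGTCA (1.55% of all promoters) and the NRF1 palindrome (0.782%) were in 0. The windows held 17 to 37 CpG dinucleotides with a median of 29, beside a median of 6 over all promoters. A match describes letters, not a bound factor.

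Leaving out a library showed which members rested on 1 library. Srsf7 ranged from -1.15 to -0.63, Srsf11 from -0.90 to -0.43, Srsf1 from -1.02 to -0.26 and Srsf9 from 0.34 to 0.69 on the log2 scale. In these 4 genes, and in Srsf2 and Srsf5, the sign held in all 17 alternatives tried. Srsf3, Srsf4, Srsf6 and Srsf10 each changed sign when 1 library was left out. In 7 of 10 members the lowest fold change came without control replicate 1 and the highest without control replicate 2, the library with the highest family level. The median of the family was -0.58 without control replicate 1 and -0.19 without control replicate 2. Beside these stood 0.37 and 0.21 over the 19680 and 19838 genes then tested, which are not the 16801 of the main setting.

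**Figure D4:**
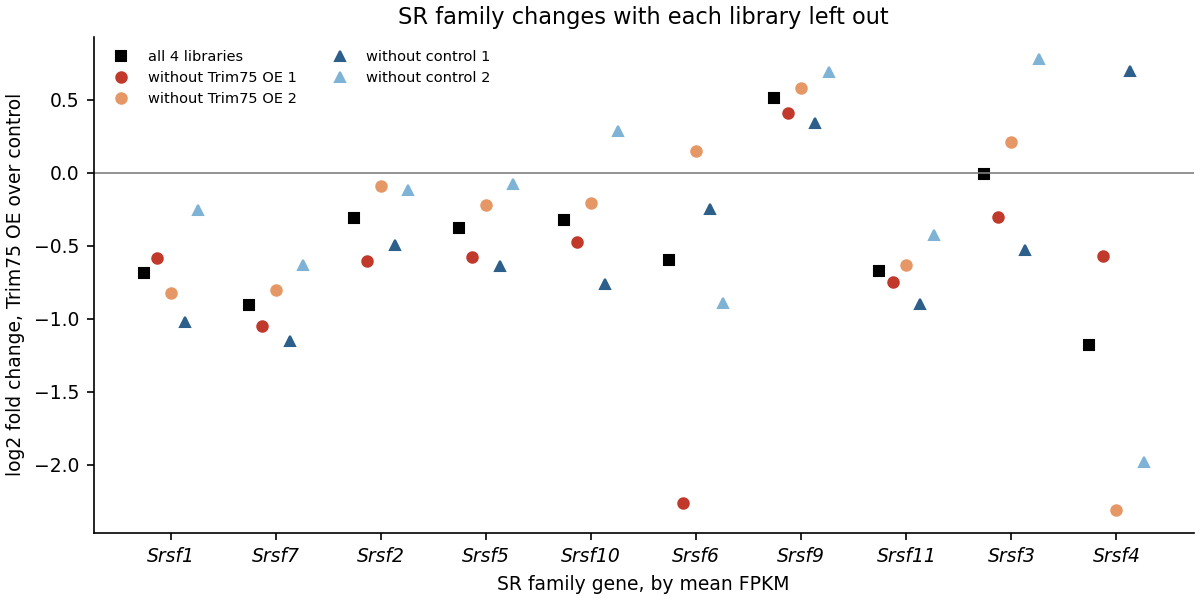
Log2 fold change of each SR family gene, Trim75 OE over control, with all 4 libraries and with each library left out. Srsf7 stays between -1.15 and -0.63 and Srsf9 between 0.34 and 0.69, while Srsf4 spans -2.31 to 0.70 and Srsf6 spans -2.26 to 0.15.

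The enzymes that act on SR proteins were mixed. Of 9 kinases and importers tested, 6 were lower and 3 higher, with a median log2 fold change of -0.17 beside 0.03 over all genes. Without control replicate 2, 3 were lower and the median was 0.24, beside 0.21 over the 19838 genes then tested. The groups were apart in the lower direction for 0 of them (19.6% of all genes) and in the higher direction for 2 (24% of all genes). Srpk1, the main cytoplasmic SR kinase, had 403.8 and 571.4 CPM in Trim75 OE libraries, against 571.7 and 528.4 CPM in controls. Its groups overlapped (log2 fold change -0.17, edgeR adjusted p = 0.932). Dyrk1a, a kinase of nuclear speckles, had a log2 fold change of -0.07 (edgeR adjusted p = 0.985). Prpf4b, a kinase of the spliceosome, had 35.7 and 43.9 CPM in Trim75 OE libraries, against 17.6 and 11.9 CPM in controls. Both Trim75 OE values were higher, with a log2 fold change of 1.43 (edgeR adjusted p = 0.480).

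Among other proteins with arginine-serine domains, most were lower. Of 17 tested, 13 were lower, 9 were apart in the lower direction (19.6% of all genes, 24.3% of those at 20 CPM or more) and 2 in the higher (24% and 22.5%), and the median log2 fold change was -0.56. Srek1, a regulator of splice-site choice that binds SR proteins, had 46.3 and 31.2 CPM in Trim75 OE libraries, against 153.9 and 94.8 CPM in controls. Its groups were far apart, with a log2 fold change of -1.68 (edgeR adjusted p = 0.321; DESeq2 adjusted p = 0.0236). Rsrc2 had a log2 fold change of -0.56 with overlapping groups (edgeR adjusted p = 0.803). Rbm39, a U2AF-related factor, had 184.6 and 247.3 CPM in Trim75 OE libraries, against 233.4 and 43.5 CPM in controls, with control replicate 2 the low library. The one other canonical gene, Srsf12, had 0 reads in both Trim75 OE libraries, against 2 and 0 in controls, and was not tested.

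Partners that recognise splice sites were lower in 7 of 10, with a median of -0.27 and 3 apart in the lower direction, beside 19.6% of all genes. Their median was -0.12 without control replicate 2, beside 0.21 over the 19838 genes then tested. It was -0.15 without Trim75 OE replicate 2, beside -0.05. Snrnp70, the U1 protein that SR proteins contact, had 24.5 and 42.7 CPM in Trim75 OE libraries, against 61.0 and 91.5 CPM in controls. Its log2 fold change was -1.18 with groups apart (edgeR adjusted p = 0.513). Ptbp1, a repressor of exons, had a log2 fold change of -0.61 with groups apart (edgeR adjusted p = 0.526), and its neuronal relative Ptbp2 had 0.11 with groups overlapping. hnRNP proteins, which often oppose SR proteins, were lower in 15 of 23 with a median of -0.17. The groups were apart and lower for 2 of them (19.6% of all genes) and apart and higher for 2 (24%). The hnRNP median was 0.02 without control replicate 2, beside 0.21 over the 19838 genes then tested. It was -0.01 without Trim75 OE replicate 1, beside -0.07. Hnrnpr had 91.8 and 94.3 CPM in Trim75 OE libraries, against 42.5 and 21.7 CPM in controls. It was apart and higher (log2 fold change 1.54, edgeR adjusted p = 0.363; DESeq2 adjusted p = 0.0727). The abundant Pcbp1 and Hnrnpab had log2 fold changes of -0.12 and 0.01 with groups overlapping.

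Factors of nonsense-mediated decay, the route by which SR transcripts with poison exons are removed, were lower in 10 of 14 (48.7% of all genes). Their median was -0.50, beside 0.03 over all genes, and their mean was 0.01, with Magohb at 5.80. The groups were apart in the lower direction for 6 of them (19.6% of all genes) and in the higher direction for 2 (24%). Without Trim75 OE replicate 1 the median of the decay factors was -0.75, beside -0.07 over the 19091 genes then tested. The exon junction protein Magoh had 523.1 and 547.9 CPM in Trim75 OE libraries, against 822.6 and 948.4 CPM in controls. It was apart and lower (log2 fold change -0.73, edgeR adjusted p = 0.327), while its near relative Magohb had 96 and 129 reads in Trim75 OE libraries, against 2 and 2 in controls (DESeq2 adjusted p = 0.00453, edgeR adjusted p = 0.321). Magoh and Magohb share similar sequences, so their counts may be uncertain. Eif4a3, the helicase of the same complex, was apart and lower at -0.56 (edgeR adjusted p = 0.667). Upf1, the central helicase of the pathway, named after its values were seen, was lower with a log2 fold change of -1.38 (edgeR adjusted p = 0.322; DESeq2 adjusted p = 0.0392).

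Export factors were lower in 8 of 12, with a median of -0.54, and 2 of them passed in DESeq2 as lower, beside 1.73% of all genes with an adjusted p. The groups were apart and lower for 3 of them (19.6% of all genes) and apart and higher for 2 (24%). The export median was 0.07 without control replicate 2, beside 0.21 over the 19838 genes then tested. It was -0.21 without Trim75 OE replicate 2 and -0.29 without Trim75 OE replicate 1, beside -0.05 and -0.07. With all 4 libraries the median was -0.28 under the replicate block, -0.32 in limma voom and -0.34 and -0.35 on log2 FPKM. Thoc5, a subunit of the THO complex, had 37.1 and 56.5 CPM in Trim75 OE libraries, against 158.1 and 151 CPM in controls. The groups were far apart, with a log2 fold change of -1.72 (edgeR adjusted p = 0.321; DESeq2 adjusted p = 0.00265). Alyref, the export adaptor that joins THO, was named after its values were seen, with a log2 fold change of -1.16 (edgeR adjusted p = 0.321; DESeq2 adjusted p = 0.00965). Nxt1, the partner of the export receptor, had -0.75 with groups apart (edgeR adjusted p = 0.534), and Thoc3 had -0.53 with groups overlapping (edgeR adjusted p = 0.796). edgeR called 0 genes in each of these 6 lists.

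**Figure D5:**
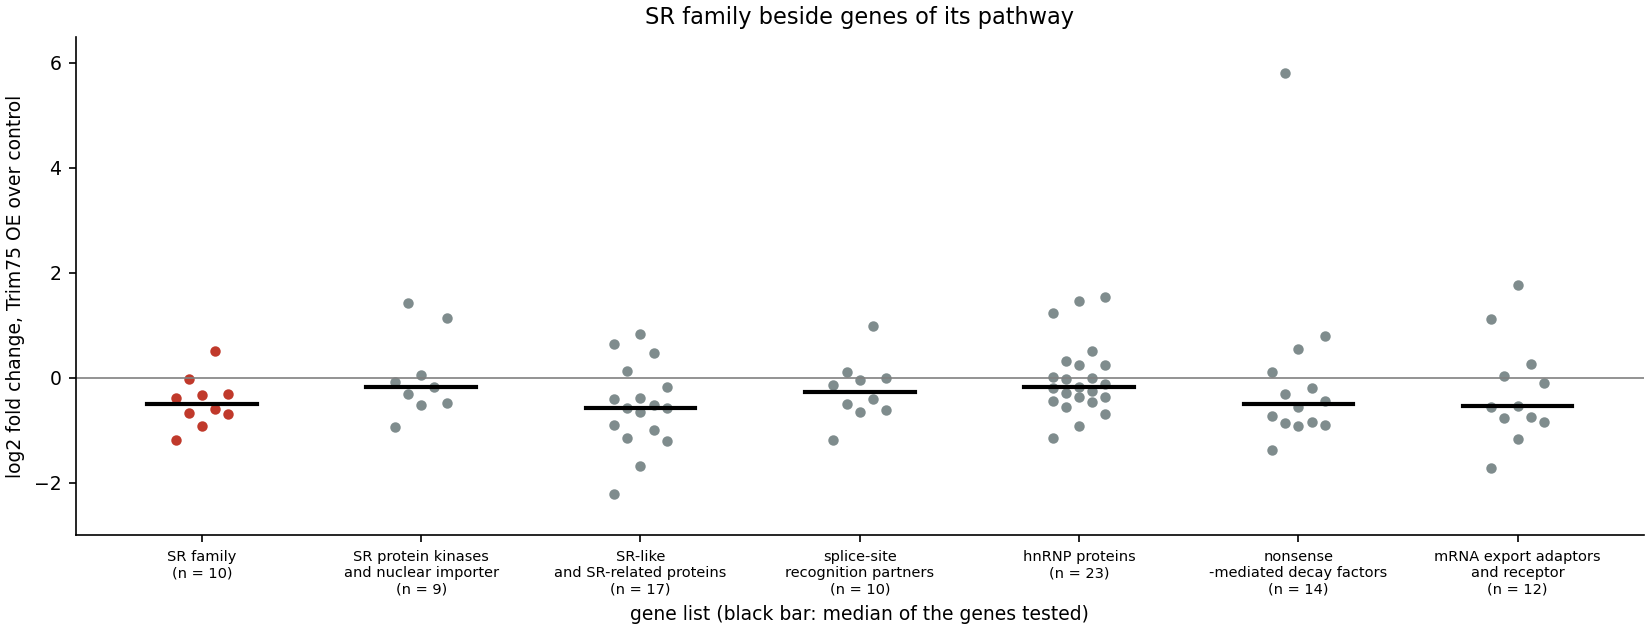
Log2 fold change, Trim75 OE over control, of each tested gene in the SR family and in 6 lists of related genes, with the median of each list as a black bar. The family has a median of -0.49, beside -0.17 for kinases and importers, -0.56 for SR-related proteins and -0.54 for export factors, and the highest point is Magohb, whose fitted value rests on 2 reads in each control.

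The genes whose pattern over the 4 libraries lay closest to that of the summed family were Rbbp6, Adnp2 and Taldo1, among 7476 genes averaging 20 CPM or more. Likeness was the Euclidean distance between log2 CPM profiles centred on their means, and it was 0.0332 for Rbbp6, 0.0488 for Adnp2 and 0.054 for Taldo1. Rbbp6 had 189.7 and 165.8 CPM in Trim75 OE libraries, against 211.7 and 316.2 CPM in controls. Over 4 libraries such a pattern is common: 779 of the 7476 genes lay within a distance of 0.5.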

How the data were processed

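The data are bulk RNA-seq libraries from 2-cell embryos, 2 of Trim75 OE and 2 of control. Per the labels' protocols, libraries were made with a TruePrep DNA library kit. The submitters' processing notes list HISAT2, featureCounts, Trim Galore and FastQC and the genome mm10. Tool versions, and how strand and reads with several matches were treated, are not given. The deposited count of a gene is a whole number of reads without normalisation, and the FPKM values deposited by the authors divide them by exon length and library total, per the file headers and the values. PCR copies are not removed by any molecular tag in the labels, so the true error exceeds that of counting alone.

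The test used edgeR (4.0.16) in R (4.3.3): filterByExpr, TMM factors, glmQLFit and glmQLFTest, Benjamini-Hochberg adjustment over all genes, threshold 0.05. CPM values use TMM-scaled library sizes, and profiles add a small constant to the CPM values before log2. Copies were found with blastn (2.17.0) among same-strand transcripts of GENCODE M21 (GRCm38) at 90% identity over 300 bases. Promoter sequences are from RefSeq. "Apart" means that the libraries of the groups do not overlap. Alternatives were DESeq2 (1.42.0), limma (3.58.1) with voom or on log2(FPKM + 1) and log2(FPKM + 0.1), other scaling and filters, a replicate block and each library left out. Same-numbered libraries were not paired, so the block stands among the alternatives. On simulated data with a small spread between libraries the test recovered most planted changes. With every gene at a spread near the 0.908 fitted in common to all genes, it called almost none. The fitted spread of the members was lower, from 0.263 for Srsf7 to 0.595 for Srsf6, except 1.12 for Srsf4. The simulation therefore does not describe the members. In any case, 0 calls does not show that genes did not differ. The members and lists were chosen with earlier results of these data known. Named genes are the members, Trim75, their copies and overlapping genes, the 3 nearest profiles and, per list, the 2 most abundant by FPKM with the 1 of lowest p.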

Additional observations from a re-analysis of the deposited data

How the results depend on the processing

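Srsf1, Srsf2, Srsf5, Srsf7, Srsf9 and Srsf11 kept their sign in all 17 alternatives, and no member passed in any of them (lowest adjusted p 0.132, Srsf7 in DESeq2). Srsf3 turned positive with upper-quartile factors (0.00793), limma voom (0.0514), log2(FPKM + 1) (0.0163) and log2(FPKM + 0.1) (0.0351); the cause was not tested. With libraries left out 1 at a time, log2 fold changes ranged from -0.53 to 0.78 for Srsf3 (positive without control replicate 2 and without Trim75 OE replicate 2, 0.21), from -2.31 to 0.70 for Srsf4, from -2.26 to 0.15 for Srsf6 and from -0.76 to 0.29 for Srsf10. The number of members with groups apart was then 5 to 8 against 4, since a group of 1 library overlaps less easily. The share of all genes apart in these settings is not given here, so these counts are no result about the members. The spread of a lone library was taken from the remaining group. The log2 ratio of summed CPM ranged from -0.82 to -0.27. List medians then ranged from -0.23 to 0.24 for kinases and importers (3 to 6 lower), -0.82 to -0.43 for SR-related proteins, -0.37 to -0.12 for splice-site partners, -0.62 to 0.0671 for export factors and -0.75 to -0.34 for decay factors. Over all genes tested, the median was 0.37 without control replicate 1 (19680 genes) and 0.21 without control replicate 2 (19838). It was -0.07 without Trim75 OE replicate 1 (19091) and -0.05 without Trim75 OE replicate 2 (19395). The filter was run anew each time, so these medians cover more genes than the 16801 tested with all 4 libraries. The splice-site median was -0.15 with no filter and -0.15 in DESeq2, and the decay median -0.71 on log2(FPKM + 0.1). The export median, -0.54, was -0.28 under the replicate block, -0.32 in limma voom, -0.34 on log2(FPKM + 1) and -0.35 on log2(FPKM + 0.1). DESeq2 called 885 genes against 0 in edgeR, and Trim75 passed in it (log2 fold change 2.73, adjusted p = 5.17e-14). Same-numbered libraries did not deviate together (r = 0.01 over 16801 genes, across genes, which are not independent replicates); with the replicate block the family median was -0.50, 8 members were lower, Srsf3 was 0.11 and 1342 genes had an unadjusted p under 0.05 against 1888. With 2 libraries a group, the 95% intervals of the members were 1.5 log2 units wide or wider, and Srsf4, at 22 to 151 reads, is also limited by depth.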
